A study of Mus musculus with 19 samples.

Results

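The abdominal aortas that carried the most and the least transcript of skeletal muscle were compared, whatever treatment the mouse had received. All 19 RNA-seq libraries were ranked by the CPM (a library's count scaled to a fixed total of counts in genes) of Ckm, the creatine kinase of muscle, and the 6 highest (rich libraries) were set against the 6 lowest (poor libraries), so that 12 of the 19 libraries were used and 7 lay between. Because the libraries were chosen by Ckm in these same data, every difference between rich and poor libraries is a description and carries no test. Each library came from the abdominal aorta of 1 male Apoe-/- mouse (a mouse prone to atherosclerosis) on a C57Bl/6J background that received angiotensin II from a subcutaneous osmotic pump, which induces abdominal aortic aneurysm. The mice received total-body X-rays 3 days before the infusion (D-3 IR, n = 7) or 1 day after its start (D+1 IR, n = 7), or were not irradiated (control, n = 5). The lack of Apoe and the infusion were thus shared by all 3 groups, and the labels give neither the age nor the day of sampling.

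Skeletal muscle fibres are packed with sarcomeres, in which myosin thick filaments pull on actin thin filaments between Z-discs. Calcium released from the sarcoplasmic reticulum starts each contraction, and creatine kinase and glycogen breakdown supply the ATP. The wall of the abdominal aorta contracts through smooth muscle, which uses other actin and myosin genes, and the vessel lies against the muscles of the back. In bulk tissue, fewer cells of a type and less RNA per cell cannot be told apart.

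The rich libraries were 3 D-3 IR, 2 D+1 IR and 1 control library, and the poor libraries were 2 of each group. Ckm reached 520 CPM in D-3 IR 10, 191 in D-3 IR 15, 64.9 in D+1 IR 3, 36.8 in control 5, 17.0 in D+1 IR 17 and 7.11 in D-3 IR 12. In the poor libraries Ckm was 1.61 CPM in D-3 IR 13, 1.52 in D-3 IR 11, 1.18 in control 4, 0.993 in control 9, 0.546 in D+1 IR 1 and 0.346 in D+1 IR 19. These values rest on 312 to 18215 counts of Ckm in the rich libraries and 17 to 62 in the poor libraries. The first library outside the rich set, D-3 IR 14, had 6.22 CPM, close to the last one inside it, and the first outside the poor set, D+1 IR 20, had 2.24 CPM. The other markers of skeletal muscle, Acta1 (skeletal alpha-actin) and Mylpf (the fast regulatory myosin light chain), put the same 6 libraries in the rich set, whereas their poor sets shared 5 (Acta1) and 4 (Mylpf) of 6 libraries with that of Ckm.

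**Figure D1:**
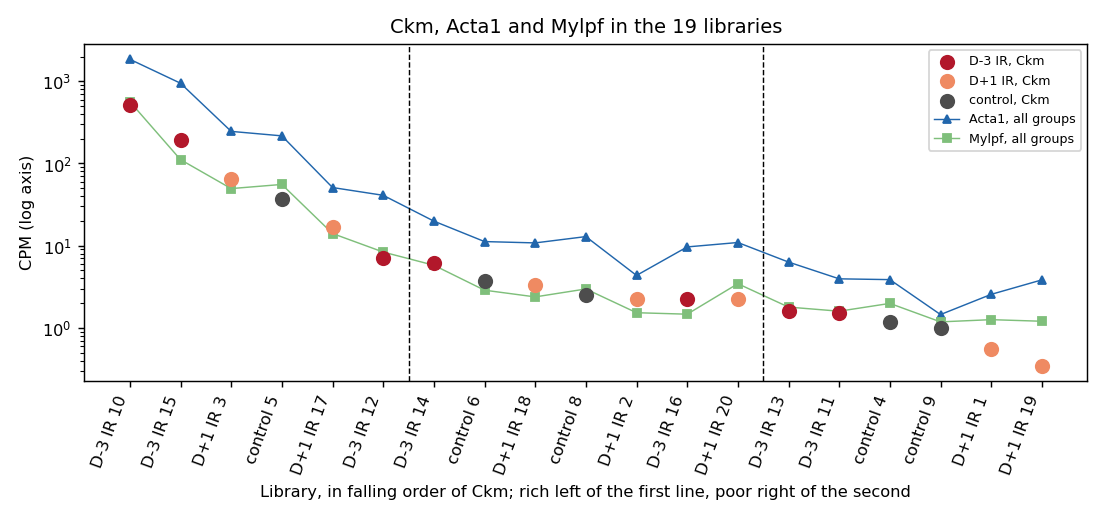
CPM of Ckm (circles, coloured by group), Acta1 (triangles) and Mylpf (squares) in each of the 19 libraries on a log axis, in falling order of Ckm, with dashed lines at the edges of the rich and poor sets. Acta1 lay between 41 and 1854 CPM in the rich libraries and between 1.45 and 6.31 CPM in the poor libraries.

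Depth did not separate the sets: there were 25839001 to 87410421 counts in genes in the rich libraries and 27407579 to 97083681 in the poor libraries. Mitochondrial genes took at most 15.2% of the counts in rich libraries and at most 17.2% in poor libraries. Acta2, the actin of smooth muscle, was abundant throughout, at 782 to 11700 CPM in rich libraries and 1561 to 14112 CPM in poor libraries. D+1 IR libraries 1, 2 and 3 carry another number series in their deposited names than the other 16, and D+1 IR 3 is rich whereas D+1 IR 1 is poor.

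Over all genes, the largest differences among called genes were in genes of skeletal muscle. A gene was called when its 6 rich and 6 poor values did not overlap and the mean log2(CPM + 0.05) differed by at least 1. Of 17616 genes tested besides Ckm, 56 were called higher in rich libraries (0.318%) and 0 lower (0%), and without the size limit 66 were higher and 1 (Pkd1l3, named after its values were seen, difference -0.61) was lower without overlap. The called genes comprised 31 of a list of 99 skeletal muscle genes, of which 84 passed the filter on low counts, 0 of the other lists' own genes, and 25 genes in no list. The 15 muscle genes that failed the filter are not in these counts. The filter asks for enough counts in only as many libraries as the smallest group holds, so a gene could pass through the rich libraries alone. Ampd1 (at least 0.319 CPM in rich libraries, at most 0.150 in the others) and Nmrk2 (at least 0.387, at most 0.181) entered in this way. The counts and the median of the list are therefore raised by the choice of libraries to an extent not tested. The median difference of the 84 tested muscle genes was 2.62 on the log2 scale, against 0.11 over all genes tested. Of the 84, 78 had positive differences, against 11526 of the 17616 genes tested besides Ckm. Without D-3 IR 10, with the other 18 libraries ranked again, 36 genes were called, without D+1 IR 3, 37, and without both (chosen after seeing the data), 23, of which 15 were on the muscle list. With 7 against 7 libraries 26 genes were called, without D+1 IR 1, 2 and 3 there were 27, and with the libraries ranked by Mylpf there were 244, of which 31 were on the muscle list.

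**Figure D2:**
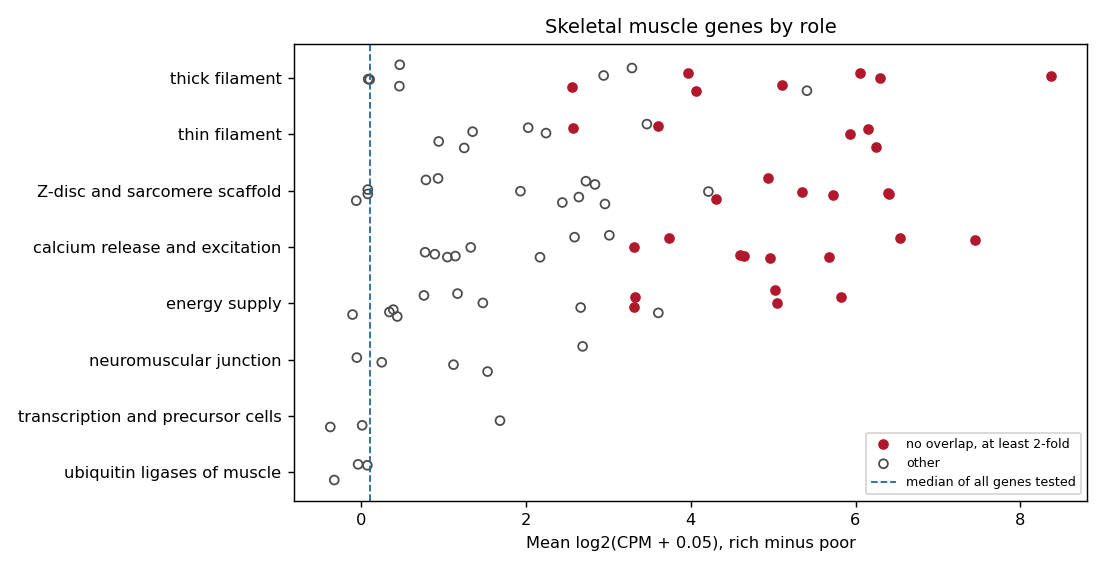
Difference in mean log2(CPM + 0.05), rich minus poor, of each tested skeletal muscle gene, by role. Filled points are called genes, open points the others, and the dashed line is the median of all genes tested (0.11). The called genes lie among the filaments, Z-disc, calcium and energy genes. No tested gene of the neuromuscular junction, transcription or ubiquitin ligase roles was called, and genes that failed the filter are not shown.

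Among thick filament genes, 7 of the 14 tested were called. Myh4, the myosin heavy chain of the fastest (type IIB) fibres, had the largest difference of all genes tested. It ran from 11.9 to 2597 CPM, median 160, in rich libraries and from 0.0206 to 2.99 CPM, median 0.545, in poor libraries, a difference of 8.38 log2 units. Mylpf ran from 8.36 to 565 CPM, median 52.6, in rich libraries and from 1.18 to 1.98 CPM, median 1.43, in poor libraries. Neither gene's sets overlapped. Myl1, the fast essential light chain, was present in every library, with 26.0 to 438 CPM in rich and 6.28 to 24.6 CPM in poor libraries. Mybpc1 and Mybpc2, the slow and fast myosin-binding proteins C, differed by 6.29 and 4.07 log2 units, and Myom2, which ties thick filaments together at the M-line, by 6.05. Myom1, another M-line protein and one of the 4 most abundant genes of this role, did not follow: it had 23.2 to 255 CPM, median 159, in rich libraries and 50.3 to 264 CPM, median 121, in poor libraries.

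Among thin filament genes, 5 of 11 tested were called. Acta1 had a median of 231 CPM in rich libraries and 3.85 CPM in poor libraries, a 60.2-fold ratio of medians, and the difference of its log2 means was 6.15. In the rich libraries it stood at 1854 CPM in D-3 IR 10, 948 in D-3 IR 15, 246 in D+1 IR 3, 217 in control 5, 51.0 in D+1 IR 17 and 41 in D-3 IR 12. In the poor libraries it stood at 6.31 CPM in D-3 IR 13, 3.95 in D-3 IR 11, 3.86 in control 4, 1.45 in control 9, 2.55 in D+1 IR 1 and 3.83 in D+1 IR 19. Its order in the poor libraries thus differed from that of Ckm. Tnnt3 (fast troponin T) ran from 25.7 to 1501 CPM, median 125, in rich libraries and from 0.587 to 2.85 CPM, median 2.03, in poor libraries. Tnni2, the fast inhibitory troponin, whose gene (chr7:142441808-142444410, + strand, GRCm38) lies near that of Tnnt3 (chr7:142498836-142516009, + strand), ran from 9.83 to 798 CPM in rich libraries and from 0.361 to 1.32 CPM in poor libraries. Each of these 3 genes was higher in the lowest rich library than in the highest poor one. Actc1 (cardiac actin, also made in developing and regenerating muscle) overlapped, with 6.96 to 190 CPM in rich and 2.45 to 10.9 CPM in poor libraries. Tnnc2 (fast troponin C) was at 0 in all 6 rich libraries. In the annotation 74.0% of its exon bases are shared with Ube2c, and reads that fall on more than 1 gene are not counted for either.

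Because these genes moved together, the promoters of 4 of them are shown as the 250 bases before the RefSeq start site in GRCm38.p6, with each match to CANNTG (an E-box, the motif that myogenic factors such as MyoD bind) in capitals. The windows are chr8:123894776-123895025 (- strand) for Acta1, chr7:127211358-127211607 (+ strand) for Mylpf, chr11:67237562-67237811 (+ strand) for Myh4 and chr7:126463074-126463323 (- strand) for Atp2a1, the last being the calcium pump described further on.
Acta1 promoter: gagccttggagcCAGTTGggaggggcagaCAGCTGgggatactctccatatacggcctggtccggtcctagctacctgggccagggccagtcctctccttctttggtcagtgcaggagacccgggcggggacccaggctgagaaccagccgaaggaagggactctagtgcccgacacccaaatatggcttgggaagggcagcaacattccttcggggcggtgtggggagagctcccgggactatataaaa
Mylpf promoter: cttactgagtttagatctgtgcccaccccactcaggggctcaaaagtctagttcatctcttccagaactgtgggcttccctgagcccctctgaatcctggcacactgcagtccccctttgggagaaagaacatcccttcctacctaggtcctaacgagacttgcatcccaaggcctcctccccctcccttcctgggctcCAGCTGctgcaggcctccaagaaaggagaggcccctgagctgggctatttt
Myh4 promoter: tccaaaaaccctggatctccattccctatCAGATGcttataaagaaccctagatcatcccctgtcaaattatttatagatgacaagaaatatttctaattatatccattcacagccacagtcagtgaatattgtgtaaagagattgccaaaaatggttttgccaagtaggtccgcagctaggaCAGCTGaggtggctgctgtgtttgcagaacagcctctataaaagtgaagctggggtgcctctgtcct
Atp2a1 promoter: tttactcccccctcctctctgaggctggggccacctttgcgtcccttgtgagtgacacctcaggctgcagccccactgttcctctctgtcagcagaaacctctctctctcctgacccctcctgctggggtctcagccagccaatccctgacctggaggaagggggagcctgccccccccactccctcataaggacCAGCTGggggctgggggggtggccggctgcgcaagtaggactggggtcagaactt
Each of the 4 windows held the E-box CAGCTG. RefSeq promoters (250 bases before to 50 after the start) were found for 36 of the 56 called genes, 50 promoters in all, and motifs were searched on both strands. CAGCTG, which is also counted within CANNTG, was in 42% of the 50 promoters against 16.3% of all 32817 promoters, CANNTG in 88% against 72.3%, TATAAA in 24% against 13.6%, the MEF2 site in 22% against 3.19% and the CArG box in 4% against 1.63%. The 32817 promoters belong to 26994 genes, whether or not these were tested here. In both sets a gene with several start sites counts more than once. The CArG box was in only 2 of the 50 promoters. A match describes the letters only.

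At the Z-disc and along the sarcomere, 6 of 18 tested genes were called. Actn3, the alpha-actinin of fast fibres, ran from 6.29 to 439 CPM, median 44.2, in rich libraries and from 0.443 to 1.79 CPM, median 1.12, in poor libraries. Ttn (titin, the spring of the sarcomere) ran from 4.43 to 246 CPM in rich libraries and from 0.206 to 1.10 CPM in poor libraries. Myot (myotilin) and Xirp2, both Z-disc and attachment proteins, differed by 6.41 and 6.39 log2 units, and Myot was at or near 0 in the poor libraries (0 to 0.0730 CPM). Xirp1 and Tcap did not separate the sets: Xirp1 had 5.73 to 363 CPM in rich and 8.68 to 160 CPM in poor libraries, and Tcap, which caps titin, had 7.53 to 116 and 6.63 to 23.0 CPM in rich and poor libraries.

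Of the calcium and excitation genes, 8 of 16 tested were called. Atp2a1, the pump that returns calcium to the reticulum of fast fibres, ran from 10.8 to 975 CPM, median 98.6, in rich libraries and from 0.206 to 1.63 CPM, median 0.482, in poor libraries. Pvalb, the calcium buffer parvalbumin, ran from 9.32 to 1245 CPM in rich libraries and from 0.185 to 2.19 CPM in poor libraries. Both thus stood clear of the poor libraries. Ryr1 (the calcium release channel) and Cacna1s (its voltage sensor) differed by 4.65 and 5.67 log2 units. Casq1, which stores calcium, had 17.0 to 291 CPM in rich libraries and 4.39 to 49.8 CPM in poor libraries, and the sets overlapped. Srl (sarcalumenin) also overlapped, with 12.2 to 67.5 CPM in rich and 8.38 to 33.1 CPM in poor libraries.

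Of the energy genes, 5 of 14 tested were called: Ckmt2 (mitochondrial creatine kinase), Pgam2, Ampd1, Cox6a2 and Nmrk2, with differences of 3.32 to 5.82 log2 units. The 4 most abundant genes of this role were not among them. Slc2a4, the insulin-responsive glucose transporter GLUT4 of muscle and fat, had 81.6 to 360 CPM in rich and 63.3 to 426 CPM in poor libraries. Pfkm had 78.7 to 270 CPM in rich and 46.2 to 105 CPM in poor libraries. Pygm, the glycogen phosphorylase of muscle, had 40.3 to 460 CPM in rich and 12.3 to 63.4 CPM in poor libraries. Eno3 (muscle enolase) had 10.9 to 466 CPM in rich and 4.93 to 12.1 CPM in poor libraries, with 5 of 6 rich libraries above every poor one.

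No tested gene of the neuromuscular junction (0 of 5), transcription and precursor cell (0 of 3) or ubiquitin ligase (0 of 3) roles was called. Chrnb1, a subunit of the acetylcholine receptor, had 3.56 to 10.7 CPM in rich and 4.03 to 8.62 CPM in poor libraries, and Chrna1 had 0.155 to 4.31 and 0.299 to 4.98 CPM in rich and poor libraries. Dok7 (1.14 to 4.15 CPM in rich, 0.433 to 2.50 CPM in poor libraries) and Colq (1.03 to 24.2 CPM in rich, 0.0927 to 4.56 CPM in poor libraries) also overlapped. Mef2c, a transcription factor that acts in muscle and elsewhere, had 30.9 to 90.2 CPM in rich libraries and 32.8 to 81.6 CPM in poor libraries. Some genes of these roles were too low for the filter and so could not be called. Of these, Myf6, Mstn, Trim54 and Trim63 did not overlap between the sets. Myod1, Myog, Myf5, Pax7, Mymk, Chrnd and Chrne overlapped. Mstn had 0.0456 to 1.35 CPM and Trim54 0.127 to 9.11 CPM in rich libraries, and both were at 0 in all 6 poor libraries. Myf6, a myogenic factor of mature fibres, had 0.0253 to 3.40 CPM in rich libraries and was at 0 in all 6 poor libraries. Trim63 (the ubiquitin ligase MuRF1) had 0.139 to 10.5 CPM in rich libraries and 0 to 0.0408 CPM in poor libraries, and in 3 of the libraries between (control 6, control 8 and D-3 IR 16, at 0.220, 0.207 and 0.191 CPM) it was above the lowest rich library. Fbxo32 (atrogin-1), Fbxo40 and Asb2 had medians of 31.2, 18.8 and 58.4 CPM in rich libraries and 36.4, 20.5 and 47.5 CPM in poor libraries.

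The rich libraries differed among themselves in their myosin heavy chains. Type IIB fibres carry Myh4, type IIX fibres Myh1, type IIA fibres Myh2 and slow fibres Myh7. In GRCm38 (GENCODE annotation) Myh2 (chr11:67171027-67197517), Myh1 (chr11:67200052-67224575) and Myh4 (chr11:67238029-67260446) lie side by side on the + strand. Of the counts of these 4 genes, Myh4 took 96.2% (95% Wilson interval 96.0 to 96.3%) in D-3 IR 10, 90.3% (89.6 to 91.0%) in D+1 IR 3 and 98.6% (98.3 to 98.9%) in D+1 IR 17. In the other rich libraries Myh4 took 49.5% (49.2 to 49.9%) in D-3 IR 15, 49.6% (48.4 to 50.8%) in control 5 and 49.2% (46.2 to 52.2%) in D-3 IR 12. In these 3 libraries Myh1 took 36.6, 34.9 and 42.4% and Myh2 took 13.0, 15.4 and 5.37%. Myh7 did not exceed 3.02% in any rich library. The intervals cover counting error only. Between 13.3 and 23.0% of the 50-base windows of the Myh1, Myh2 and Myh4 transcripts are shared with another of the 4 genes, and reads that map to several places were left out. Their longest transcripts are of like length, 6016 to 6083 bases.

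**Figure D3:**
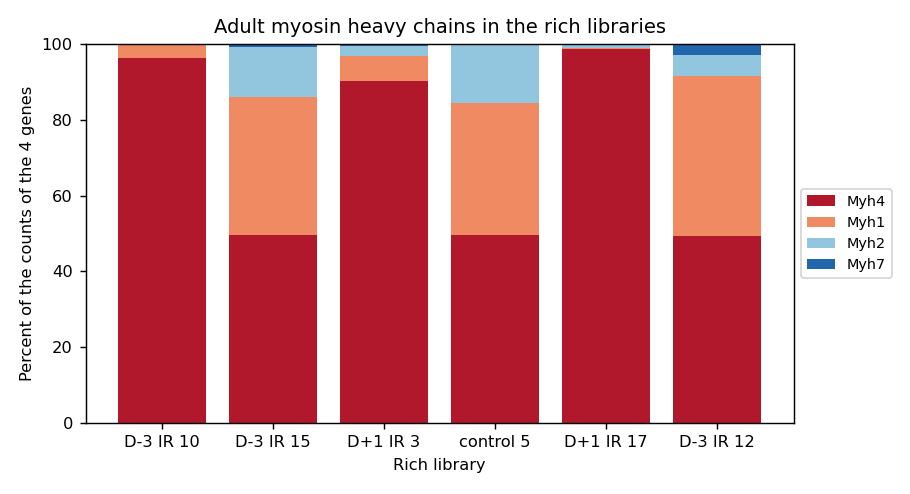
Percent of the summed counts of Myh4, Myh1, Myh2 and Myh7 taken by each gene in each rich library, in falling order of Ckm. Myh4 takes over 90% in D-3 IR 10, D+1 IR 3 and D+1 IR 17 and close to 50% in D-3 IR 15, control 5 and D-3 IR 12.

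Relative to Ckm, some genes were steady among the rich libraries and others were not. Acta1 stood at 3.00 to 5.90 times Ckm and Atp2a1 at 1.52 to 2.39 times. Pvalb ranged from 0.347 times Ckm in D-3 IR 15 to 2.39 times in D-3 IR 10, and Mb (myoglobin, which stores oxygen in oxidative fibres) from 0.0178 times in D+1 IR 17 to 1.14 times in D-3 IR 12. In the annotation 31.9% of the exon bases of Mb are shared with other genes, and how much of its level came from muscle was not tested. Of the fast fibre list, 10 of 12 tested genes were called, with a median difference of 5.38, and of the slow fibre list 1 of 7 was called (Tnni1), with a median difference of 0.95. The slow list does not hold Mybpc1, the slow myosin-binding protein C, which was called with a difference of 6.29, whereas the fast list holds Mybpc2. The embryonic and perinatal myosins were close to absent, since Myh3 and Myh8 did not exceed 0.177 and 0.206 CPM in any rich library. Of the heart muscle list, 4 of 8 genes passed the filter and 0 were called, and the list summed to 6.42 to 19.6 CPM in rich libraries and 5.31 to 18.5 CPM in poor libraries. Its defining gene Myl7 was at most 0.116 CPM in rich libraries, and Nppa at most 0.0506 CPM, but 61.5% of the exon bases of Nppa are shared with Gm13054, so that its reads may go uncounted.

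The genes most like Ckm over the 19 libraries were found as those with the smallest SD of log2((CPM + 0.05)/(Ckm CPM + 0.05)) among genes with a mean of at least 1 CPM. Tnnt3 (SD 0.59), Acta1 (0.62), Mylpf (0.63), Actn3 (0.63) and Tnni2 (0.68) came first, followed by Ttn (0.71), Xirp2 (0.75), Rpl3l (0.83), Myot (0.83) and Dhrs7c (0.87). Of the 84 tested muscle genes, 44 had a smaller SD against Ckm than against Acta2 or Ucp1 (the uncoupling protein of brown fat), 34 were steadiest against Acta2 and 6 against Ucp1. Of all 17616 genes tested besides Ckm, 433 were steadiest against Ckm, 13301 against Acta2 and 3882 against Ucp1. Being steadiest against Acta2 was thus the usual case for a gene here. These reference genes were chosen after values had been seen. Being steadiest against Ckm was not particular to the muscle list. It held for 5 of 5 tested lymphocyte genes and 8 of 9 tested genes of sympathetic neurons and adrenal medulla. No tested gene of the other non-muscle lists was steadiest against Ckm. Of the 7 tested genes of the slow fibre list, 0 were steadiest against Ckm, 5 against Acta2 and 2 against Ucp1. How much of their level came from slow fibres was not tested. Myom1 was the plainest case of a muscle list gene in step with Acta2, with an SD of 0.38 against Acta2 and 2.84 against Ckm, and Asb2 had 0.52 and 2.81.

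**Figure D4:**
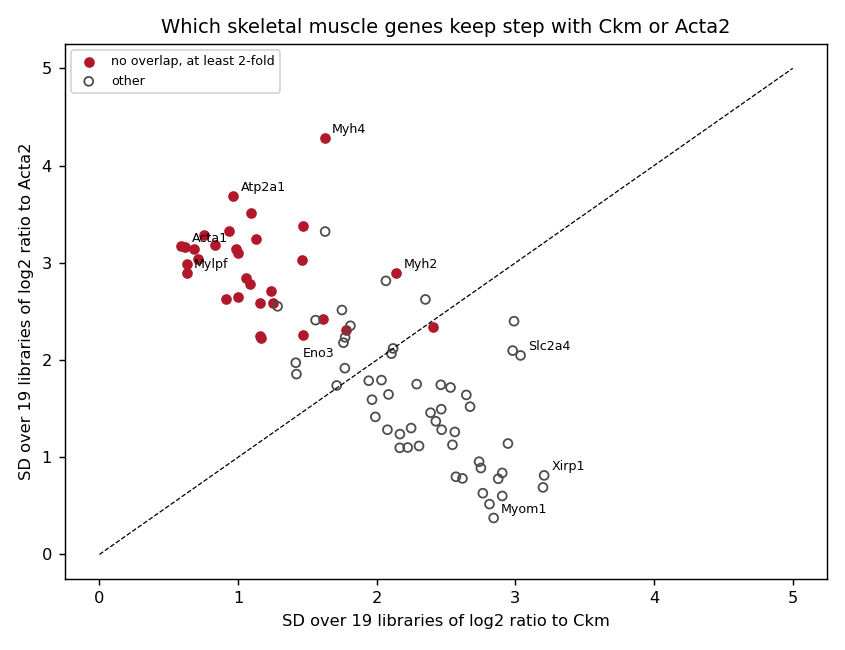
SD over the 19 libraries of the log2 ratio of each tested skeletal muscle gene to Ckm (x axis) and to Acta2 (y axis). Points above the dashed line of equality vary less against Ckm; Acta1 and Mylpf lie there, and Myom1 and Xirp1 lie below it.

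Outside the lists, 25 genes were called, 10 of them with a mean of at least 1 CPM. Dhrs7c, a reductase of the sarcoplasmic reticulum, ran from 0.365 to 21.5 CPM in rich libraries and from 0 to 0.0695 CPM in poor libraries, a difference of 4.91 log2 units. Rpl3l, the form of ribosomal protein L3 found in striated muscle, ran from 0.524 to 34.2 CPM in rich libraries and from 0.0348 to 0.215 CPM in poor libraries. Mypn (myopalladin, of the Z-disc), Tmod4 (which caps thin filaments in skeletal muscle), Apobec2 and Itgb1bp2 (melusin) differed by 4.20, 3.95, 3.87 and 3.47. The other 4 were Kcnc1, a potassium channel of neurons (difference 3.59), Nup210, a nuclear pore protein (2.03), Klhl33 (1.65) and Plvap, a protein of fenestrated endothelium (1.08). Plvap was abundant in both sets, at 131 to 460 CPM in rich and 62.1 to 110 CPM in poor libraries. These 4 did not keep step with Ckm over the 19 libraries (SD 2.06 to 2.41, against 0.83 for Rpl3l). Among the libraries between, Kcnc1 reached 4.80 CPM in control 8, above every rich library. In D+1 IR 20, Nup210 stood at 9.05, Klhl33 at 3.82 and Plvap at 260 CPM, each within its range in the rich libraries. No gene outside the lists with a mean of at least 1 CPM was called lower.

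Markers of other tissues also varied with the rich set, and their part in these differences was not tested. The summed lymphocyte list (5 of 5 genes tested, none called, median difference 1.89) was 370 CPM in D-3 IR 10 and reached 215 CPM in D+1 IR 3, but 0.801 to 5.47 CPM in the other 4 rich libraries, against 1.28 to 5.84 CPM in the poor libraries. The list of sympathetic neurons and adrenal medulla (9 of 10 tested, none called, median difference 3.99) summed to 57.3 to 4351 CPM in rich libraries and 6.79 to 1848 CPM in poor libraries. Its adrenaline-forming enzyme Pnmt stayed at or below 0.215 CPM in rich libraries and 0.147 CPM in poor libraries. Schwann cell genes (5 of 5 tested, none called, all with positive differences, median 1.98) summed to 220 to 1850 CPM in rich and 56.7 to 508 CPM in poor libraries. The 8 endothelial genes tested also all had positive differences (median 0.38, none called), and their sums were 903 to 1651 CPM in rich and 681 to 1105 CPM in poor libraries. Positive differences were common, with 11526 of the 17616 genes tested besides Ckm. Adrenal cortex genes stood out in D+1 IR 3 alone among the 19, at 106 CPM. Smooth muscle genes summed to 2204 to 20828 CPM in rich and 3881 to 27267 CPM in poor libraries, and brown adipocyte genes to 501 to 6446 and 1176 to 6852 CPM. The sets overlapped for each of these lists, and the median differences were -0.08 for smooth muscle and -0.29 for brown adipocytes.

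**Figure D5:**
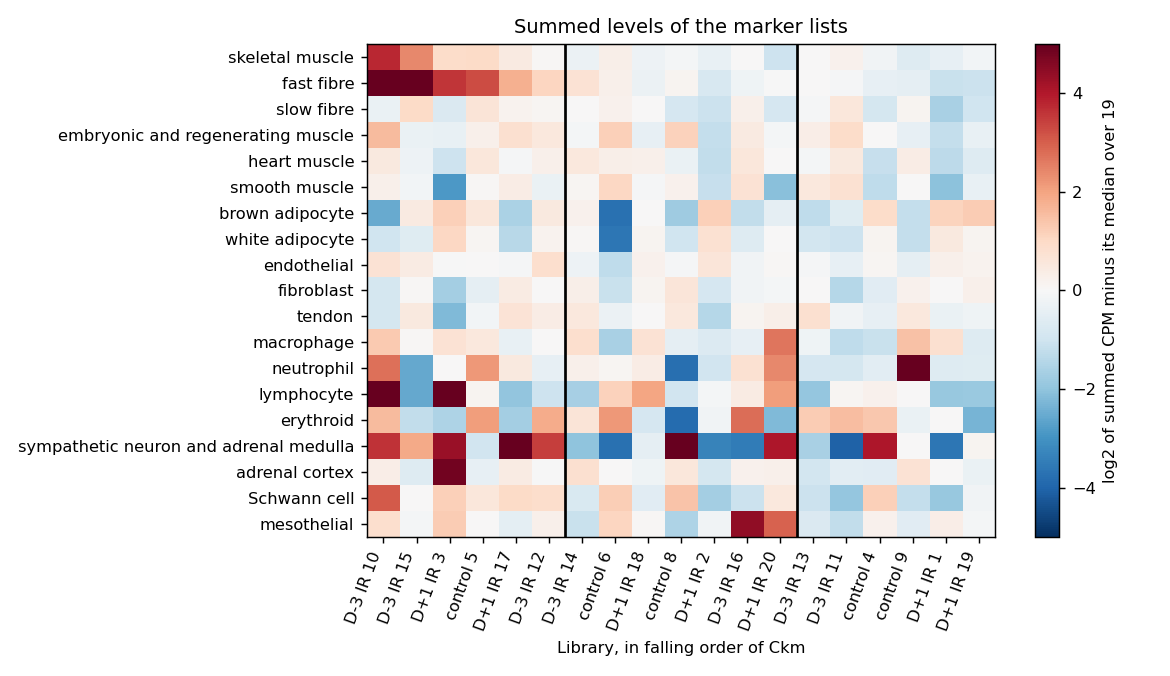
Summed CPM of each marker list in each library, as log2 minus its median over the 19 libraries, in falling order of Ckm, with lines at the edges of the rich and poor sets and colours capped at 5. The fast fibre row fades from left to right, whereas the lymphocyte row is darkest in D-3 IR 10 and D+1 IR 3.

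Whether the muscle signal differed between the irradiation groups was tested, since the groups were not used to choose the libraries. Ckm ran from 1.52 to 520 CPM, median 6.22, in D-3 IR aortas. It ran from 0.346 to 64.9 CPM, median 2.27, in D+1 IR aortas and from 0.993 to 36.8 CPM, median 2.49, in control aortas. The ranges overlapped. Mean log2(CPM + 0.05) was 3.53 ± 3.40 (SD, n = 7) in D-3 IR and 1.74 ± 2.59 (n = 7) in D+1 IR aortas, a difference of 1.78 (exact two-sided permutation p = 0.286, adjusted over 3 comparisons 0.527). D-3 IR differed from control (1.76 ± 2.07, n = 5) by 1.76 (exact permutation p = 0.351, adjusted 0.527) and D+1 IR from control by -0.02 (exact permutation p = 0.965, adjusted 0.965). Without D-3 IR 10 the D-3 IR aortas differed from D+1 IR by 0.86 (exact permutation p = 0.552) and from control by 0.85 (exact permutation p = 0.602), and without D-3 IR 15 by 1.11 (exact permutation p = 0.506) and 1.09 (exact permutation p = 0.602). Omitting any 1 library gave 0.86 to 2.49 against D+1 IR and 0.85 to 2.62 against control. Without D+1 IR 1, 2 and 3 the difference between D-3 IR and D+1 IR was 2.10 (exact permutation p = 0.321) and that between D+1 IR and control was -0.33 (exact permutation p = 0.825). These p-values miss the threshold, which does not show that the groups were alike.

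In edgeR's quasi-likelihood test over 17617 genes, 0 genes (0%) passed a Benjamini-Hochberg adjusted p of 0.05 in any of the 3 group comparisons. At an unadjusted p under 0.05 there were 2018 genes for D-3 IR against D+1 IR, 232 for D-3 IR against control and 1253 for D+1 IR against control, and DESeq2 called 10, 0 and 2 genes. None of the 10 was on the muscle list. In D-3 IR against D+1 IR aortas, 79 of the 84 tested muscle genes had positive log2 fold changes (median 2.39, against -0.04 over all genes). Over all genes besides Ckm, 8000 of 17616 were positive. At an unadjusted p under 0.05, 48 muscle genes were higher and 0 lower, against 6.71% of all genes higher. The smallest edgeR adjusted p of the list was 0.409. Acta1 had a log2 fold change of 3.17 ± 1.53 (SE; edgeR adjusted p = 0.440) and Mylpf one of 3.24 ± 1.44 (adjusted p = 0.423). Without D-3 IR 10 these fold changes were 2.04 for Acta1 and 1.22 for Mylpf, and without D+1 IR 3 they were 4.86 and 4.57. The median of the list fell to 1.43 without D-3 IR 10, was 1.84 without both D-3 IR 10 and D+1 IR 3, and was 2.41 without D+1 IR 1, 2 and 3. Myom1, in step with Acta2, had 1.26 ± 0.41 (adjusted p = 0.409), and the smooth muscle list had 11 of 13 genes higher at an unadjusted p under 0.05, with none called. All 7 genes of the erythroid list were positive and higher at an unadjusted p under 0.05 in this comparison (median log2 fold change 2.89, none called), and Alas2, Hbb-bs and Hbb-bt of that list were among the 10 genes called by DESeq2. The part of these other lists in the muscle values was not tested.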

How the data were processed

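Abdominal aortas of 19 mice were profiled by poly(A)-selected RNA-seq, 1 library each. Per the labels, the authors checked reads with FastQC and aligned them with STAR 2.7.9a to GRCm38. The deposited counts per gene are raw and unnormalized, and hold uniquely mapped reads; the unstranded column was used. A joined table was not used. Between 67.5 and 78.0% of the reads fell in genes, and the rest were left out. CPM was computed from counts in genes, and 17617 genes passed edgeR's filterByExpr for the 3 groups. Symbols were found for 52081 of 55414 IDs. Gene lists, members and the rule for named genes were chosen with earlier results of these data known. Named were the muscle list by role with up to 4 most abundant genes each, the 10 largest differences outside the lists in each direction without overlap, the 10 genes most like Ckm, and called genes of other lists; 1 named gene is not reported here.

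Rich and poor libraries were compared by overlap and by the difference of mean log2(CPM + 0.05). Groups were compared with edgeR 4.0.16 (TMM, quasi-likelihood) and, as an alternative, DESeq2 1.42.0; Ckm was compared by exact permutation in scipy 1.17.1. Scripts were tested on simulated data. Exon overlaps came from GENCODE, promoters from RefSeq without chromosome 18. The alternatives were TMM scaling, pseudocount, filter, set size, ranking gene, strand column and omitted libraries. Depth was 25839001 to 97083681 counts in genes. P-values measure the spread between mice.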

Additional observations from a re-analysis of the deposited data

Results flagged for a closer look

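Of 27 sets of values (9 measures in each of the 3 groups) 4 held a library far from the others of its group. Chance flags about 1 in 20 among independent measures chosen beforehand. These measures were neither, since the lists were chosen with earlier results of these data known and Mylpf is on the fast fibre list. Mylpf was 55.6 CPM in control 5, and the fast fibre list summed to 689 CPM there, both far above the other control libraries. The lymphocyte list summed to 370 CPM in D-3 IR 10, far above the other D-3 IR libraries. The adrenal cortex list summed to 106 CPM in D+1 IR 3, far above the other D+1 IR libraries.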

How the results depend on the processing

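The median difference of the skeletal muscle list (2.62) lay between 1.44 and 2.75 under all 10 alternatives and all 19 omissions of 1 library. Each of these again chose the libraries by Ckm, Acta1 or Mylpf, all muscle genes. The positive sign therefore follows from the choice and gives no support. The 56 genes called higher became 26 with 7 against 7 libraries, 244 with ranking by Mylpf (whose poor set shares 4 libraries with that by Ckm), 27 without D+1 IR 1, 2 and 3 and, chosen after seeing the data, 23 without D-3 IR 10 and D+1 IR 3; the 31 muscle genes became 16, 31, 16 and 15. Without 1 library the counts were 36 to 56 and 21 to 31. The 0 genes called lower became 1 with TMM scaling, 6 with 5 against 5 libraries and 1 with ranking by Acta1, and 0 to 1 without 1 library. The cause was not tested. For Ckm in D+1 IR against control, the difference of -0.02 became 0.083 with a pseudocount of 0.5 and ranged from -0.73 to 0.84 without 1 library. Where edgeR called 0 genes, DESeq2 called 10 (the 2 irradiated groups) and 2 (D+1 IR against control). For single muscle genes in D-3 IR against D+1 IR, the Xirp1 fold change turned sign without 1 library (-0.31 to 0.98), as did Srl (-0.032 to 0.56) and Colq (-1.42 to 1.47; -0.22 without D-3 IR 10 and D+1 IR 3). No paired analysis was possible because no replicate number occurs in more than 1 group. Genes under about 1 CPM rest on few counts in the poor libraries.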
